A study of Mus musculus with 20 samples.

Results

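The Hox genes were followed through neuronal differentiation of mouse embryonic stem cells with and without knockdown of HPRT, the purine salvage enzyme hypoxanthine guanine phosphoribosyltransferase. Members were chosen by symbol, as every gene named Hox with a cluster letter a to d and a paralog number, which gave 39 of the 37561 genes listed in all the tables: 11 in cluster A, 10 in cluster B, 9 in cluster C and 9 in cluster D. The parent cells were ESD3, an embryonic stem cell line of strain 129s2/SvPas grown on primary mouse embryo fibroblast feeders. The control line carried a retrovirus with an shRNA against luciferase and the HPRT knockdown line carried one with an shRNA against HPRT, and both were otherwise treated alike. Both lines were differentiated as spherical neural masses towards dopaminergic neurons with Shh, FGF8 and ascorbic acid, and RNA was taken on each of days 0 to 4 and every other day thereafter until day 14. Each line gave 1 library per day, 20 libraries in all, made from RNA pooled within the time point. A line is therefore a single infected population that was sampled again and again, and p-values measure the spread over days and not between independent cultures.

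Hox genes encode homeodomain transcription factors that tell cells where they lie along the head-to-tail axis. They sit in clusters, and the order of the genes along the chromosome follows the order of their expression along the embryo: low paralog numbers are expressed up to the hindbrain, middle numbers in the neck and trunk, and high numbers in the lower trunk, limbs and tail, while forebrain and midbrain lack Hox expression. Retinoic acid, FGF and Wnt signals open the clusters from the anterior end, Polycomb proteins keep them silent, and PBX and MEIS proteins bind DNA together with the Hox proteins. Here paralogs 1 to 3 are called anterior (8 genes), 4 to 8 middle (15 genes) and 9 to 13 posterior (16 genes). On the NCBI37 (mm9) assembly cluster A lay on chromosome 6 at 52105366 to 52210874 on the minus strand. The other clusters lay on the plus strand, cluster B on chromosome 11 at 96055630 to 96229570, cluster C on chromosome 15 at 102751534 to 102867274 and cluster D on chromosome 2 at 74506367 to 74603200.

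Promoters are shown for 3 members that were lower in the knockdown line (Hoxa2, Hoxb8 and Hoxc4) and for the member with the greatest mean excess there (Hoxa13). Each is a window of 300 bases over the start of the gene in RefSeq on GRCm38.p6, a later assembly than that of the counts, and is written 5′ to 3′ on the strand of the gene. The windows are chr6:52164782-52165081 on the minus strand for Hoxa2, chr11:96281655-96281954 on the plus strand for Hoxb8, chr15:103034145-103034444 on the plus strand for Hoxc4 and chr6:52260831-52261130 on the minus strand for Hoxa13. Capitals mark TGATNNAT, the motif bound by PBX-Hox pairs, and TTTATNG, a motif of posterior Hox and Cdx proteins, on either strand.
Hoxa2: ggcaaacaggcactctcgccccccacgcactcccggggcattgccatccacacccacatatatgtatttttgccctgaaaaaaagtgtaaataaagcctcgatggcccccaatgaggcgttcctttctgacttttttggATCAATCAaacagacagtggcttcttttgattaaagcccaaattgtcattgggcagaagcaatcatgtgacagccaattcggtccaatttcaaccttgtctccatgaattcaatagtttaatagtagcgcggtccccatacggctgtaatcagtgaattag
Hoxb8: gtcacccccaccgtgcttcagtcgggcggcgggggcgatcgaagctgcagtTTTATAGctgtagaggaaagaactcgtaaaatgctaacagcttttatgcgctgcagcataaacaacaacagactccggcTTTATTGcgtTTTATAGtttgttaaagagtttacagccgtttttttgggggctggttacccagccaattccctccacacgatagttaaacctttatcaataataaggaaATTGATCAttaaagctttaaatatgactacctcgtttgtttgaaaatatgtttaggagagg
Hoxc4: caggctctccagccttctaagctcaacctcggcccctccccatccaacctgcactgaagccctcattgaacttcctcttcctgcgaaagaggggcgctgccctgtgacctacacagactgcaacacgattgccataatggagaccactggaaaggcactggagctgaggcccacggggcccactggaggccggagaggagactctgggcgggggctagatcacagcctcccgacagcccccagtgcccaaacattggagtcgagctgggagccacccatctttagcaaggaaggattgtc
Hoxa13: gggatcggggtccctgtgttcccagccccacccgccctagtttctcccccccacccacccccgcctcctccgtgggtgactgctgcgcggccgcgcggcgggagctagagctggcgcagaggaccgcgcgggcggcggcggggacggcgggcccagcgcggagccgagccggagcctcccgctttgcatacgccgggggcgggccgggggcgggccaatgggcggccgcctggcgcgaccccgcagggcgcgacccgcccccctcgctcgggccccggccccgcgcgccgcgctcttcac
The Hoxb8 window held 3 matches to TTTATNG and 1 to TGATNNAT, and the Hoxa2 window held 1 match to TGATNNAT. Neither motif was found in the windows of Hoxc4 and Hoxa13. The Hoxa13 window held 45 CG dinucleotides, against 9 for Hoxa2, 13 for Hoxb8 and 9 for Hoxc4. Promoter windows were at hand for 22 Hox genes (24 windows), with a median of 14.5 CG dinucleotides against 7 over all 32851 windows. TGATNNAT was found in 16.7% of Hox windows and 8.85% of all windows, TTTATNG in 8.33% and 10.9%, AGGTCA, part of the site of retinoic acid receptors, in 29.2% and 16.3%, TATAAA in 16.7% and 13.6%, and CCAAT in 62.5% and 37.4%, each searched on both strands. A match is a string of letters and not a measured binding site.

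The deposited values were log2 ratios between pairs of libraries, and from them the reads behind 36 of the 39 members were worked out, leaving Hoxa3, Hoxa11 and Hoxd8 with ratios alone. A normalised read is a read divided by the size factor of its library, which ranged from 0.782 to 1.52 about a geometric mean of 1, and library totals are not known. Values at or below 1 normalised read entered the ratios as 1, and such libraries are said to be at the floor. Hoxc11, Hoxc12, Hoxd11 and Hoxd12 were at 0 in both libraries of most tables and were set apart. Of the other 35 members, 16 passed a filter on level (a typical count of at least 4 on the log2 scale) and entered the tests across 13608 genes, and 19 had too few reads. Hprt itself was lower in the knockdown line on 9 of 9 days, with a mean log2 ratio of −4.00 ± 0.888 (SD), and the median gene had a log2 ratio between −0.0237 and 0.0106 on every day.

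Some libraries stood apart before any Hox gene was considered. All 8 pluripotency markers (Pou5f1, Nanog, Zfp42, Esrrb, Tdgf1, Dppa5a, Dppa3 and Utf1) were at least 2-fold lower at day 1 than at day 0 in the knockdown line, by a median of −5.90 on the log2 scale, and then at least 2-fold higher again at day 2 (median 3.26) and at day 3 (2.10). The same markers were at least 2-fold lower once more at day 10 (median −4.04 from day 8) and higher at day 12 (2.94). In the control line their median steps at days 0 to 1 and 2 to 3 were 0.39 and 0.54. Some later control steps were larger: −1.04 from day 4 to 6, 1.88 from day 6 to 8 and −1.55 from day 12 to 14. All 8 markers were at least 2-fold higher in the control step from day 6 to 8. From day 12 to 14 the knockdown median step was −1.45. Over days 0 to 3 the 18 genes listed for fibroblasts and feeders had small median steps in the knockdown line. These were −0.04 from day 0 to 1, −0.30 from day 1 to 2 and −0.14 from day 2 to 3. Single genes ran from −3.54 to 1.97 over these steps. In the control line 12 of the 18 were at least 2-fold higher at day 6 than at day 4, and 10 at day 14 than at day 12. In the knockdown line 8 of the 18 were at least 2-fold higher at day 8 than at day 6 (median 0.93). Likewise 8 were at day 14 against day 12 (median 0.86). Whether their reads came from feeders was not tested. Their median log2 ratio between the lines ran from −1.20 to 0.90 over the days. The part of either list in the Hox results was not tested. For the Hox members, the counts called over the 9 days are also given without days 1 and 2. So are the means of Hox members that this moved by over 1.5 times. Counts for the other gene lists are given with days 1 and 2 included only. Fewer cells of a type and less RNA per cell cannot be told apart in these libraries.

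Along differentiation, Hox reads rose in the control line, with 12 of the 16 tested members rising and 1 falling. The 35 members with a count in every library (all but Hoxa3, Hoxa7, Hoxa11 and Hoxd8) summed to between 389 and 927 normalised reads on days 0 to 4 and to between 1875 and 2907 on days 8 to 14. Every member of the middle group but Hoxa7 that was tested rose, as did Hoxa2, Hoxa3 and Hoxb3 of the anterior group and Hoxa10 and Hoxd9 of the posterior group. Over all genes tested 19.7% rose in the control line and 23.9% fell (limma slope on day, Benjamini-Hochberg adjusted p below 0.05). The rise was steepest for Hoxb5, a middle gene of the neck and upper trunk, at 0.58 ± 0.0744 (SE) log2 units per day (adjusted p = 0.000891). Hoxb4 rose by 0.39 ± 0.0571 per day and Hoxa10 by 0.38 ± 0.0743, and the smallest called rise was 0.13 ± 0.0357 for Hoxa2. Without days 1 and 2 the count was 11 rising, with Hoxa2 lost (adjusted p = 0.0772), beside 17% of all genes.

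Hoxb3, which marks the posterior hindbrain, had the most reads per kilobase of exon in the control line on days 8 to 14 (median 254), among members with recovered counts. Its control libraries held 49.4, 23.2, 69.1, 86.4, 127, 191, 463, 977, 877 and 651 normalised reads in the order of the days. Every library from day 8 on was above every earlier one. Hoxb4 followed the same course at lower counts, with 3.22 normalised reads at day 0, 13.1 at day 4, 175 at day 10 and 99.97 at day 14. Hoxb5 was at the floor in the control libraries of days 0, 1 and 4 and reached 125 normalised reads at day 14.

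Hoxb1, a gene of the early hindbrain that is confined to a single segment there, was the only member called as falling in the control line. Its control libraries held between 28.6 and 66.6 normalised reads on days 0 to 6, then 21.5 at day 8, 14.1 at day 10, 10.3 at day 12 and 2.52 at day 14. The slope was −0.28 ± 0.0461 log2 units per day (adjusted p = 0.00186). Hoxb2 (0.097 ± 0.0450, adjusted p = 0.113) and Hoxa7 (0.059 ± 0.0299, adjusted p = 0.139) were not called.

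In the knockdown line 7 of the 16 rose, against 7.6% of all genes, and Hoxb1 was the only tested member with a slope below 0 (−0.052 ± 0.155, adjusted p = 0.843). Hoxa3, Hoxa4, Hoxa5, Hoxa7, Hoxb4 and Hoxd8 were among them. Slopes of the named genes ran from 0.20 ± 0.0416 log2 units per day for Hoxa5 (adjusted p = 0.0219) to 0.40 ± 0.101 for Hoxa7 (adjusted p = 0.0373). Slopes of similar size with larger errors missed the threshold, as for Hoxa10 (0.41 ± 0.129, adjusted p = 0.0674) and Hoxd9 (0.38 ± 0.111, adjusted p = 0.0545). Without the libraries of days 1 and 2, 4 rose (Hoxa2, Hoxa3 and Hoxb4 among them) beside 1.12% of all genes. With the slope taken on log2(day + 1), 1 member was called.

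The slopes of the lines themselves differed for 1 of the 16, beside 14% of all genes (limma slope of the daily log2 ratio).

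**Figure D1:**
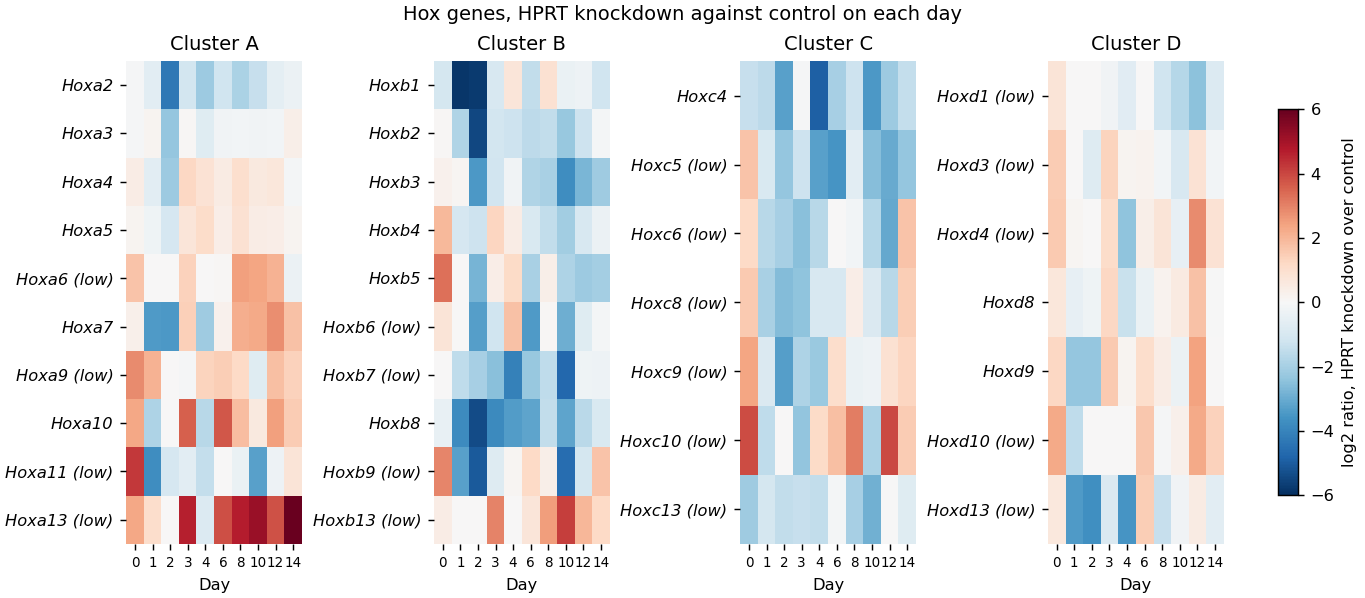
Log2 ratio of the HPRT knockdown line over the control line for 34 Hox genes, by cluster (panels), gene in paralog order (rows) and day (columns); blue is lower and red higher in the knockdown line, and "(low)" marks genes under the level filter. The column of day 2 is blue for most genes (14 of the 16 tested members at least 2-fold lower, beside 8.68% of all genes tested), and Hoxb8 and Hoxc4 are below 0 on every day.

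Between the lines, 5 of the 16 tested members differed over the 9 days, all of them lower in the knockdown line: Hoxb8, Hoxc4, Hoxb3, Hoxb2 and Hoxa2. Of all genes tested 52.5% differed, 26.3% being lower and 26.2% higher, so the share of Hox genes called (5 of 16) was not above that of genes at large. The median of the mean log2 ratios was −0.36 over the 16 members and 0.0056 over all genes tested. The former was −0.10 without day 2 and −0.52 without day 0. The called genes were 3 of 6 tested anterior members, 2 of 8 middle members and 0 of 2 posterior members, and by cluster 1 of 7 in A, 3 of 6 in B, 1 of 1 in C and 0 of 2 in D. Without the libraries of days 1 and 2 the same 5 were lower (21.3% of all genes) and Hoxa4 and Hoxa5 were higher (22.2% of all genes).

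Hoxb8, a middle gene of the trunk, lay on chromosome 11 at 96143219 to 96146639 and differed most. Its control libraries held 31.2, 13.9, 51.4, 49.2, 91.7, 116, 208, 234, 181 and 148 normalised reads from day 0 to day 14. Its knockdown libraries held 22.4, 1.03, at most 1.12 (the floor), 3.45, 8.95, 13.1, 74.7, 26.0, 59.4 and 79.3. The knockdown library was the lower on every day, although the ranges of the lines overlapped. The daily log2 ratios were −0.46, −3.77, −5.35, −3.84, −3.35, −1.46, −3.16, −1.61 and −0.89 without day 6, with a mean of −2.66 ± 1.63 (SD, 9 days, limma adjusted p = 0.00152), and day 6 was at −3.17. At day 2 the control level was at least 13.7-fold above the limit that 0 reads allow in the knockdown library (3 reads, counting error only). Hoxb7 and Hoxb8 share 1069 exon bases in the annotation, 40.4% of those of Hoxb8, so reads there may have been split between the genes.

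Hoxc4, the first gene of cluster C and a gene of the neck, was the only member of that cluster with enough reads to test. Its control libraries ranged from 12.0 to 227 normalised reads with a median of 38.2, and its knockdown libraries from 1.28 to 60.7 with a median of 14.8. From day 8 on the control line held 89.2, 187, 227 and 166 normalised reads and the knockdown line 37.4, 17.3, 50.9 and 60.7. The late libraries of the lines did not overlap. The log2 ratio was below 0 on 9 of 9 days, from −4.91 at day 4 to −0.06 at day 3, with a mean of −2.16 ± 1.46 (SD, adjusted p = 0.00262).

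Hoxb3 was close between the lines at first and far apart later. The knockdown libraries held 59.3, 25.9, 6.24, 39.3, 109, 55.8, 121, 74.7, 130 and 147 normalised reads, the highest being 147 at day 14 where the control line reached 977 at day 10. The log2 ratio was 0.28 at day 0 and 0.14 at day 1, then −3.46, −1.14, −0.21, −1.92, −3.70, −2.76 and −2.14 on days 2, 3, 4, 8, 10, 12 and 14. The mean was −1.66 ± 1.51 (SD, adjusted p = 0.0119). With the lines compared without pairing by day this call was lost (adjusted p = 0.0936). In the annotation 37.9% of the exon bases of Hoxb3 and 49.4% of those of Hoxb2 are shared with the antisense transcript Hoxb3os, and whether the counting used strand is not stated.

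Hoxb2 and Hoxa2, paralogs that pattern the hindbrain and the neural crest, were lower in the knockdown line with a low point at day 2. Hoxb2 held between 69.6 and 384 normalised reads in the control line (median 169) and between 3.74 and 141 in the knockdown line (median 74.9). Its log2 ratios were 0.06, −1.82, −5.44, −1.12, −1.26, −1.48, −2.29, −1.24 and −0.11 without day 6, with a mean of −1.63 ± 1.61 (SD, adjusted p = 0.0170). Hoxa2 held between 43.0 and 230 normalised reads in the control line (median 124) and between 3.74 and 109 in the knockdown line (median 45.1). Its log2 ratios were −0.09, −0.63, −4.27, −1.09, −2.18, −1.88, −1.40, −0.56 and −0.35, with a mean of −1.39 ± 1.29 (SD, adjusted p = 0.0132). Both genes were nearly level between the lines at day 0 and again close at day 14, and neither was called on days 0 to 4 alone or on days 8 to 14 alone. Without days 1 and 2 the mean was −1.06 for Hoxb2 and −1.08 for Hoxa2, both still called (adjusted p = 0.0163 and 0.0140).

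No other member of the anterior group was called. Hoxb1 had a mean log2 ratio of −1.54 ± 2.52 (SD, adjusted p = 0.110), from −5.84 at day 1 and −5.73 at day 2 to 0.92 at day 8. At day 1 the control library held 55.6 normalised reads and the knockdown library was at the floor, so the control level was at least 18.0-fold above the limit of 3 reads. At day 4 the order was turned, with 83.4 normalised reads in the knockdown line and 50.5 in the control line. Hoxa3, read as a ratio alone, was at −0.08, 0.15, −2.32, 0.07, −0.74, −0.16, −0.19, −0.17 and 0.37 without day 6, with a mean of −0.34 ± 0.801 (SD, adjusted p = 0.259). Without day 2 that mean was −0.095, and without days 1 and 2 the means were −0.13 for Hoxa3 and −0.33 for Hoxb1.

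**Figure D2:**
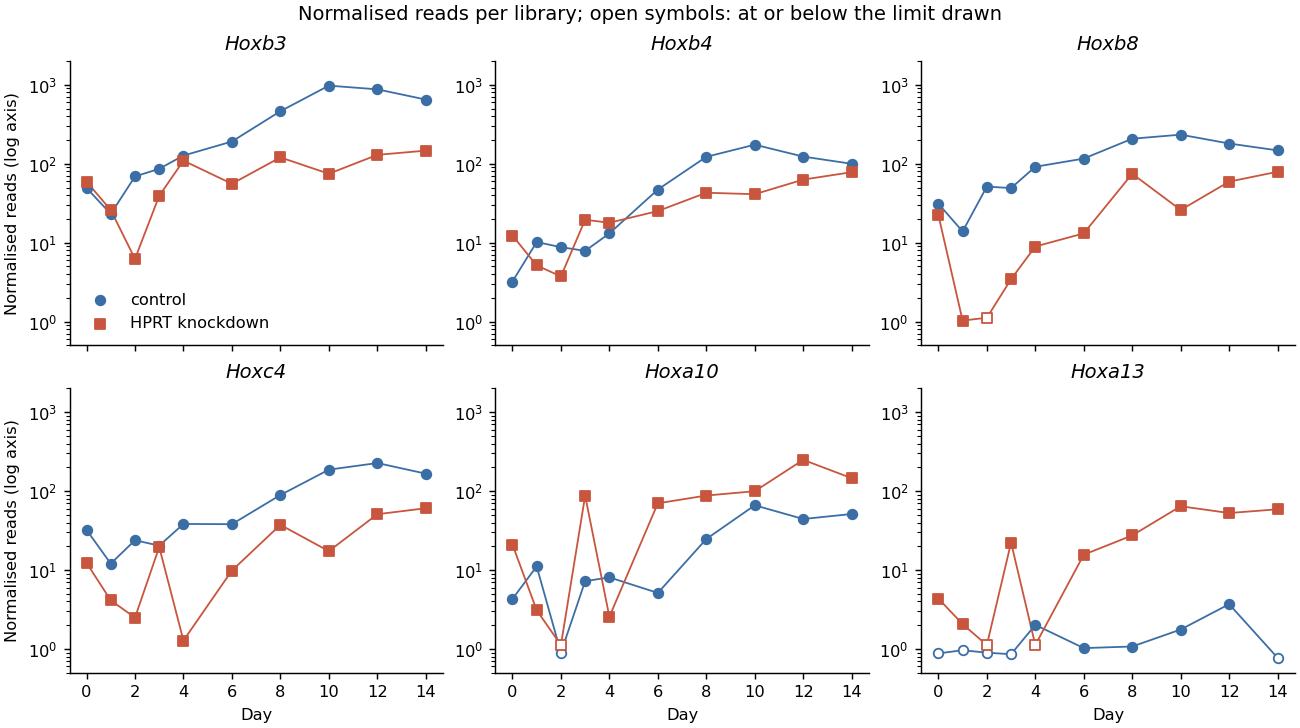
Normalised reads per library (log axis) over days for Hoxb3, Hoxb4, Hoxb8, Hoxc4, Hoxa10 and Hoxa13 in the control line (blue circles) and the HPRT knockdown line (red squares), 1 library per point; open symbols are libraries at the floor, drawn at its upper limit. From day 8 on the control line lies above the knockdown line for the first 4 genes and below it for Hoxa10 and Hoxa13.

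In the middle group the late ratios were mostly above 0 for cluster A members and below 0 for cluster B members. Hoxa4 held 20.4, 56.4, 45.8 and 68.0 normalised reads in the control line on days 8, 10, 12 and 14 and 39.9, 85.6, 73.5 and 63.1 in the knockdown line. Its log2 ratios were 0.45, −0.63, −2.17, 1.22, 0.88, 0.99, 0.61, 0.67 and −0.10 over the 9 days (mean 0.21 ± 1.06, adjusted p = 0.597). Hoxa5, a gene of the neck and lung, was above 0 on 7 of 9 days at 0.18, −0.24, −1.0, 0.73, 1.08, 0.91, 0.43, 0.39 and 0.16 (mean 0.29 ± 0.633, adjusted p = 0.228). With days 1 and 2 left out, Hoxa4 was higher in the knockdown line by 0.67 (adjusted p = 0.00983) and Hoxa5 by 0.55 (adjusted p = 0.0118).

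Hoxa7 had the widest spread of the cluster A members tested. The log2 ratio was 0.29, −3.39, −3.46, 1.42 and −2.12 on days 0 to 4 and then 2.20, 2.25, 2.78 and 1.75 on days 8 to 14, with a mean of 0.19 ± 2.51 (SD, adjusted p = 0.845) that was 1.23 without days 1 and 2 (adjusted p = 0.107). The control line stayed between 5.37 and 20.1 normalised reads. In the knockdown line Hoxa7 was at the floor on days 1 and 2, held 34.1 normalised reads at day 8 and 67.4 at day 14, and had no recovered count on days 10 and 12. Of its exon bases 20.4% are shared with an antisense noncoding gene.

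In cluster B the middle members Hoxb4 and Hoxb5 had ratios of either sign on the early days and mostly below 0 on the late ones. Hoxb4 had log2 ratios of 1.95, −1.01, −1.22, 1.31 and 0.45 on days 0 to 4 and −1.49, −2.08, −0.98 and −0.35 on days 8 to 14 (mean −0.38 ± 1.35, adjusted p = 0.453). Its late control libraries held 122, 175, 123 and 99.97 normalised reads and its late knockdown libraries 43.0, 41.2, 63.1 and 78.3, which did not overlap. Hoxb5 had log2 ratios of 3.31, 0, −2.81, 0.39 and 1.17 early and 0.33, −1.87, −2.17 and −2.03 late (mean −0.41 ± 1.98, adjusted p = 0.585). From day 10 on it held 91.7, 114 and 125 normalised reads in the control line and 24.9, 25.5 and 30.4 in the knockdown line. Hoxd8, a ratio alone, was at 0.68, −0.49, −0.26, 1.24, −1.32, 0.19, 0.52, 1.77 and −0.01 (mean 0.26 ± 0.928, adjusted p = 0.463). Without days 1 and 2 the means were −0.17 for Hoxb4, −0.12 for Hoxb5 and 0.44 for Hoxd8, none of them called.

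The posterior group held 2 tested members. Hoxa10, a gene of the lumbar trunk and hindlimb, held 24.7, 66.1, 44.3 and 51.2 normalised reads in the control line on days 8 to 14 and 87.8, 99.7, 249 and 146 in the knockdown line. Every late knockdown library was above every late control library. Earlier the knockdown libraries of days 0, 3 and 6 held 21.02, 87.4 and 70.0 normalised reads and those of days 1, 2 and 4 held 3.10, at most 1.12 and 2.56, while the control line stayed at or below 11.1. The log2 ratios were 2.30, −1.87, 0, 3.60, −1.66, 1.85, 0.60, 2.48 and 1.51, with a mean of 0.98 ± 1.87 (SD, adjusted p = 0.166). Hoxd9 was at 1.24, −2.33, −2.32, 1.59, 0.15, 0.44, −0.34, 2.41 and 0.02 (mean 0.097 ± 1.62, adjusted p = 0.878). Without days 1 and 2 the means were 1.53 for Hoxa10 (adjusted p = 0.0569) and 0.79 for Hoxd9 (adjusted p = 0.0874).

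Fitted on days 8 to 14 alone, a choice made after seeing the data, 6 of the 16 differed. Hoxb3 (−2.63), Hoxc4 (−2.07), Hoxb8 (−1.78) and Hoxb4 (−1.22) were lower in the knockdown line, beside 15.3% of all genes. Hoxa7 (2.25, adjusted p = 0.00592) and Hoxa10 (1.61, adjusted p = 0.0248) were higher, beside 16.9% of all genes. On days 0 to 4 alone 3 were lower, Hoxb8 and Hoxc4 among them, beside 21.2% of all genes, and no member was higher (20.8%); this early fit includes the libraries of days 1 and 2.

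**Figure D3:**
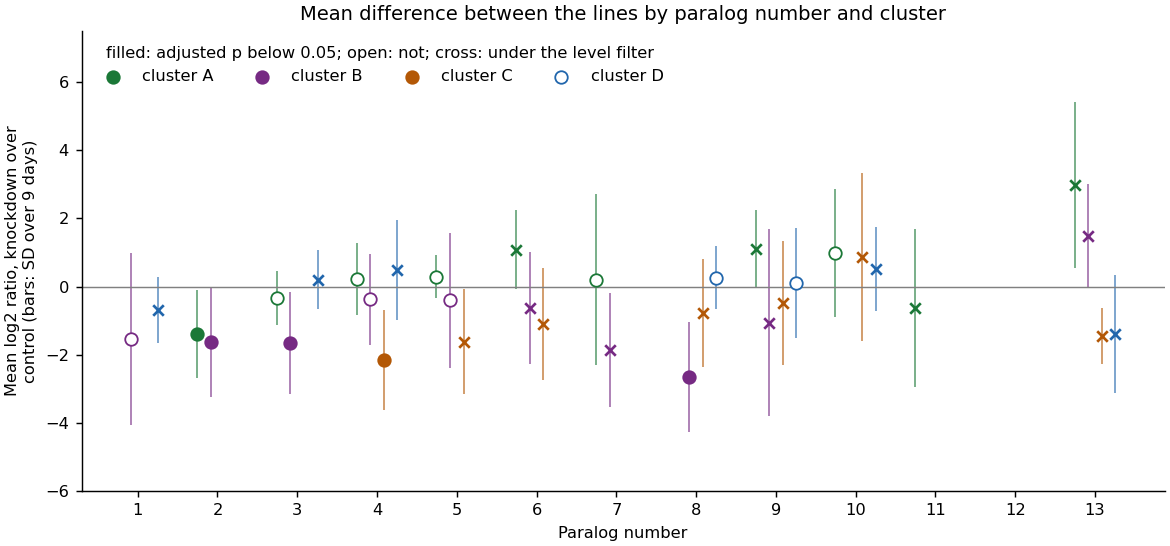
Mean log2 ratio of the HPRT knockdown line over the control line (vertical axis; bars are the SD over 9 days) against paralog number (horizontal axis) for 34 members, coloured by cluster; filled points passed the test, open points did not and crosses are genes under the level filter. The 5 filled points have paralog numbers 2, 3, 4 and 8 and lie below 0, and Hoxa13 has the highest mean at 2.99.

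Among the 19 members under the filter, the mean log2 ratio ran from −1.87 (Hoxb7) to 2.99 (Hoxa13). Means were above 0 for 14 of the 35 members not set apart and below 0 for 21. By cluster 7 of 11 were above 0 in A, 1 of 10 in B, 1 of 7 in C and 5 of 7 in D. By position 1 of 8 anterior, 6 of 15 middle and 7 of 12 posterior members were above 0. Genes at the floor in 1 line make these ratios depend on where the floor was put, and they are given as descriptions.

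Hoxa13, the most posterior gene of cluster A and one of the distal limb and hindgut, was almost unread in the control line. Its control libraries held between the floor and 3.69 normalised reads on all 10 days, with 5 of 10 at the floor. Its knockdown libraries held 4.35, 2.06, at most 1.12, 22.3, at most 1.12, 15.6, 27.5, 64.3, 52.7 and 58.8. From day 6 on each knockdown library was above every control library. Against the limit that 0 reads allow in the control library, the knockdown level was at least 11.3-fold higher at day 3 and at least 23.3-fold higher at day 14. Hoxb13, the most posterior gene of cluster B, held 2.15, 1.76, 5.38 and 5.88 normalised reads in the control line on days 8 to 14 and 12.1, 31.6, 21.8 and 13.4 in the knockdown line, so that the last gene of cluster B was on the other side from Hoxb2, Hoxb3 and Hoxb8.

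Other low members followed no single course. Hoxc13 was lower in the knockdown line on 9 of 9 days, with 7.38 to 16.7 normalised reads in the control line and 1.08 to 8.26 in the knockdown line. Hoxc5 held 16.1, 57.3, 39.9 and 48.7 normalised reads late in the control line and 10.3, 9.75, 4.85 and 9.78 in the knockdown line. Hoxb9 changed sides, with 40.6 normalised reads against 5.37 in the control line at day 0, the floor against 41.4 at day 2, 1.08 against 25.6 at day 10 and 53.3 against 16.2 at day 14. With no filter on level, 4 low members were called higher (Hoxa6, Hoxa9, Hoxa13 and Hoxb13, beside 20% of all genes) and Hoxb7, Hoxc5 and Hoxc13 were called lower together with the 5 named above (21.1% of all genes). Hoxa11, Hoxb6, Hoxc6, Hoxc8, Hoxc9, Hoxc10, Hoxd1, Hoxd3, Hoxd4, Hoxd10 and Hoxd13 had mean log2 ratios from −1.40 (Hoxd13) to 0.87 (Hoxc10) and were not called.

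Summed over members, the lines used their Hox reads differently on the late days, a window chosen after seeing the data. Cluster B held 57.4% to 68.0% of Hox reads on days 8 to 14 in the control line and 27.0% to 46.4% in the knockdown line. Cluster A held 17.8% to 20.1% in the control line and 37.2% to 57.0% in the knockdown line. Posterior members held 6.28% to 12.8% in the control line and 22.0% to 39.1% in the knockdown line, and anterior members 47.97% to 62.0% and 29.5% to 41.2%. None of these ranges overlapped, each over 4 libraries per line. The ranges of the remaining sets did overlap: middle members held 31.6% to 39.3% in the control line and 31.4% to 36.8% in the knockdown line, cluster C 7.33% to 11.9% and 3.52% to 9.79%, and cluster D 4.26% to 10.8% and 9.38% to 23.3%. No test was made of these shares. They are shares of reads and lean on the genes with most reads, Hoxb3 above all. Hoxa3, Hoxa7, Hoxa11 and Hoxd8 are in neither the sums nor the totals. Cluster A thus stands for 8 of its 11 members and cluster D for 8 of its 9.

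**Figure D4:**
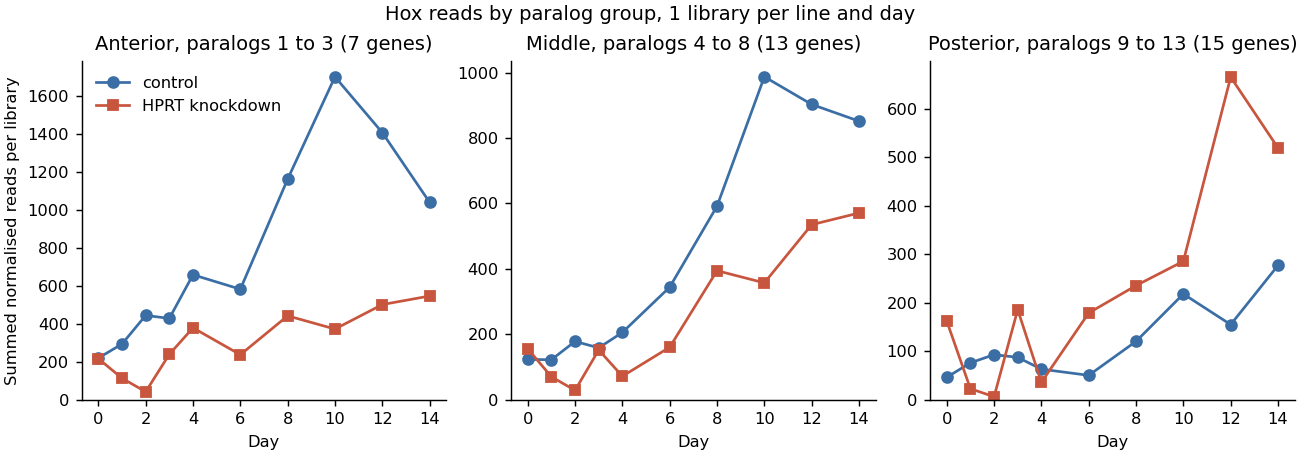
Summed normalised reads of the anterior (7 genes), middle (13 genes) and posterior (15 genes) Hox members with a value in every library, by day, in the control line (blue circles) and the HPRT knockdown line (red squares), 1 library per point. On days 8 to 14 the anterior sum lies at 1041 to 1702 in the control line and 373 to 547 in the knockdown line, while the posterior sum lies at 120 to 277 and 235 to 665.

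The order of the genes by reads per kilobase of exon also differed. Hoxa3, Hoxa11 and Hoxd8 could not be ranked, nor could Hoxa7 in the knockdown line. In the control line the medians over days 8 to 14 put Hoxb3 first (254), followed by Hoxb2 (95.9), Hoxb8 (73.4), Hoxa2 (72.9) and Hoxc4 (69.1), of which the last 4 overlapped in their ranges over those days. In the knockdown line Hoxa5 came first (65.5), followed by Hoxd9 (46.3), Hoxa4 (42.8) and Hoxb3 (41.6), with neighbours in that order overlapping. Hoxb3 was thus at rank 1 in the control line and at rank 4 in the knockdown line.

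Many of the tested members moved together on single days. At day 2, 14 of the 16 tested members (all but Hoxa10 and Hoxd8) were at least 2-fold lower in the knockdown line, beside 8.68% of all genes. Hoxa10 was at the floor in both libraries of that day, so its ratio could not show a difference. From day 0 to day 1 of the knockdown line 11 of 16 were at least 2-fold lower, beside 10.1% of all genes, and from day 2 to day 3 all 16 were at least 2-fold higher, beside 6.07%. In the control line the same steps gave 3 of 16 lower (Hoxb3, Hoxb8 and Hoxc4, beside 3.42% of all genes) and 2 of 16 higher (Hoxa10 and Hoxd8, beside 1.07%). The summed reads of the knockdown line were 535 at day 0, 206 at day 1, 76.9 at day 2 and 577 at day 3, against 389, 492, 716 and 675 in the control line. The pluripotency markers of the knockdown line also moved on these days, but not always in the same direction. From day 1 to day 2 they rose (median 3.26) while the summed Hox reads fell. Each day rests on 1 library, with no replicate check.

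At day 0, the start of the course as spherical neural masses, 4 of the 16 were at least 2-fold higher in the knockdown line (Hoxa10, Hoxb4, Hoxb5 and Hoxd9), beside 12.5% of all genes tested. Hoxb1 (log2 ratio −1.04) and Hoxc4 (−1.37) were at least 2-fold lower that day, a direction not counted over all genes. At day 10, 7 of 16 were at least 2-fold lower (Hoxa2, Hoxb2, Hoxb3, Hoxb4, Hoxb5, Hoxb8 and Hoxc4), beside 11.4%. Hoxa7 (log2 ratio 2.25) was at least 2-fold higher, again a direction not counted over all genes. The day 10 library of the knockdown line is again one in which the pluripotency markers were low (median log2 ratio −4.94). Summed Hox reads of that line were 1072 at day 8 and 1015 at day 10, against 1875 and 2907 in the control line.

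Cofactors and regulators of the clusters were looked at by lists, to be read beside the 26.2% of all genes that were higher and the 26.3% that were lower. Of 9 TALE cofactors 2 were higher and 3 lower in the knockdown line: Pknox2 (0.53 ± 0.306, SD) and Pbx4 (0.45 ± 0.445) were higher, and Pbx3 (−1.51 ± 0.404) and Meis2 (−1.49 ± 0.682), direct partners of Hox proteins on DNA, were lower on 9 of 9 days. Of 25 chromatin regulators 2 were higher and 14 lower, with a median of −0.30. At day 1, 12 of the 25 were at least 2-fold lower, against 0 to 4 on the other days. Cbx8 (0.45 ± 0.307) was higher, and Cbx7 (−1.84 ± 0.788), like it a reader of the Polycomb mark, and Mtf2 (−1.07 ± 0.434), which helps to recruit Polycomb, were lower. Of 6 Cdx and ParaHox genes, which act upstream of or beside the clusters, only 1 had enough reads to be tested, and it was not called. The miRNA genes of the clusters (Mir10a, Mir10b, Mir196a-1, Mir196a-2, Mir196b and Mir615) were listed at 0 in all tables.

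Of 17 tested genes of the retinoic acid pathway 2 were higher and 6 lower. Aldh1a1, which makes retinoic acid, was higher (1.49 ± 1.29) as was Dhrs3 (0.78 ± 0.397), which turns its precursor back to retinol. Cyp26b1 (−3.44 ± 0.845), which breaks retinoic acid down, and Crabp2 (−2.10 ± 0.960), which carries it to the nucleus, were lower on 9 of 9 days. Of 6 tested genes of caudal progenitors and their signals 3 were higher, led by T (3.48 ± 1.13) and Wnt5a (1.04 ± 0.385), and 3 lower, led by Nodal (−3.33 ± 2.15) and Fgf17 (−3.11 ± 1.02).

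Markers of regions along the axis were compared in the same fit. Of 14 tested forebrain and midbrain genes 7 were higher and 3 lower in the knockdown line, with a median of 0.78: Six3 (2.63 ± 1.10), a gene of the anterior forebrain, and Lmx1a (2.32 ± 1.01), a gene of the midbrain floor, were higher, and Dmbx1 (−1.82 ± 1.24) and En2 (−0.96 ± 1.00) were lower. Of 9 tested hindbrain genes 0 were higher and 5 lower (median −1.05), among them Lbx1 (−3.00 ± 1.86), which sets dorsal interneurons. Of 6 tested spinal cord and motor neuron genes Olig2 (3.02 ± 1.44) was higher and Lhx1 (−3.33 ± 1.36) lower. The study used Olig2 as a glial marker, so its rise need not speak of position along the axis.

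Markers of other cells moved between the lines as well. The 8 pluripotency markers were all lower in the knockdown line (median −2.81), led by Zfp42 (−3.43 ± 2.67) and Tdgf1 (−3.38 ± 2.40), and 5 of 7 tested neuronal genes were lower (median −1.88), led by Stmn2 (−2.01 ± 1.00) and Elavl4 (−1.99 ± 1.06). Of 8 glial genes 4 were higher (median 1.495), led by Olig1 (2.51 ± 1.01) and Aqp4 (1.35 ± 0.953). Of 18 fibroblast genes 1 was higher (Fbn1, 0.74 ± 0.566) and 5 lower, led by Tbx15 (−1.17 ± 1.07) and Fap (−1.14 ± 1.03). Of 8 neural progenitor genes 2 were higher (Vim, 0.91 ± 0.288, and Sox2, 0.52 ± 0.575) and 2 lower (Pax6, −1.36 ± 0.738, and Hes5, −0.99 ± 1.02). Of 6 tested mesoderm genes Hand2 (0.87 ± 0.903) was higher and 3 were lower, led by Meox1 (−3.39 ± 1.56) and Tcf15 (−3.24 ± 2.09); of 5 tested endoderm genes Foxa1 (2.77 ± 0.754) was higher and Sox17 (−1.89 ± 2.40) lower; and of 3 tested neural crest genes Sox9 (0.67 ± 0.522) was higher. The part of these lists in the Hox differences was not tested.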

How the data were processed

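RNA was measured in 20 libraries, 10 per line. Per the study's methods and the submitters' processing notes, libraries (TruSeq v2, Illumina HiSeq, 50 cycles) were aligned to NCBI37 (mm9) with ELAND in CASAVA 1.8.2 and normalised by DESeq in Avadis NGS; the lane of each library and the use of strand in counting are not given in the sources used here. The authors deposited 28 tables, each with log2 normalised counts of a pair of libraries minus the mean of the pair, so that only the log2 ratio of the pair is held: 10 tables compare the lines on a day and 9 per line compare consecutive days. Each table was scaled separately.

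The level of a gene was read from the rounding step of its values (filter at log2 4, 13608 genes). Because the ratios of low genes come from whole reads (or parts of 1 in 49 of a read), the reads of 36 Hox genes were solved from all tables except that of control days 3 and 4, which was at odds with the others, and divided by size factors. Of 718 library values 433 were whole, 136 held part of a read and 149 were at the floor. Tested on simulated data, the method returned every library for 68 of 68 genes. The simulated counts were drawn around members already solved and were built by the same rule. The simulation therefore cannot show that the real counts follow that rule. In the real data 2 of the solved members had libraries outside it. Intervals and limits cover counting error only, and library totals and so the depth are unknown. The lines were compared with limma 3.58.1 (R 4.3.3) on same-day ratios of 9 days (day 6 left out, as in the study's pathway analysis), and trends by a slope on day over steps added up within a line, with Benjamini-Hochberg adjustment over 13608 genes and a threshold of 0.05. Those steps include the table of control days 3 and 4, so it entered the control slopes. It also entered the least-squares library values. Its effect on the slopes was not tested. On simulated ratios a mean of 1 was recovered for 70% of genes and of 2 for 94%, with 6 false calls; slopes of 0.2 and 0.4 were recovered for 71% and 90%, with 7 false calls. The simulated noise was drawn separately for each gene and day. It therefore cannot show how many false calls arise where genes move together within a library. The day pairs the libraries in the main test: deviations of same-day libraries correlated at −0.00906 to 0.422, above 0.1 on 8 of 9 days.

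Every member is counted, with daily values for those past the filter; of the other lists the 2 called genes with the largest mean in each direction are named; single-gene results of a few genes that this rule names are not reported here. The members and lists were chosen with earlier results of these data known. Gene models were from gencode vM1. Figures and summaries used python 3.11.15.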

Additional observations from a re-analysis of the deposited data

Results flagged for a closer look

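For 3 of the 16 tested members the lowest of the 10 daily log2 ratios stood apart from the other 9 by Dixon's criterion, a share to set beside the 1 in 20 groups that chance flags. In each the day was day 2: −4.27 for Hoxa2, −2.32 for Hoxa3 and −5.44 for Hoxb2. Day 2 is also a day on which the knockdown library had few Hox reads in all (76.9 normalised reads against 716 in the control library) and low pluripotency markers (median log2 ratio −3.86), and the part of that library in these values was not tested.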

How the results depend on the processing

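The count of 5 members differing between the lines moved to 12 of 38 with no filter on level and to 3 on days 0 to 4 alone, and with no replicate block (no pairing by day) it was 4, with Hoxb3 lost. Leaving out a day in turn gave 5 to 6, Hoxa5 being added as higher without day 2. The 13 members with a trend in the control line became 23 of 38 with no filter. The 7 in the knockdown line became 1 with the slope on log2(day + 1), where the count over all genes fell from 1786 to 127, 11 with least-squares library values and 4 without days 1 and 2. The single member whose difference changed over days became 2 with no filter, 0 on log2(day + 1), 2 without days 1 and 2, and 0 to 3 with a day left out (Hoxb8 added without day 0, Hoxb3 and Hoxb5 added as falling without day 2, none called without day 14); over all genes the count went from 1911 to between 605 (without day 12) and 1657.

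Directions turned for some members that were not called. On days 0 to 4 alone the mean log2 ratio was −0.049 for Hoxa4, −1.45 for Hoxa7, 0.30 for Hoxb4, 0.41 for Hoxb5, −0.031 for Hoxd8 and −0.33 for Hoxd9. With a day left out the mean ran from −0.13 to 0.65 for Hoxa7 and from −0.19 to 0.40 for Hoxd9. It kept its sign but moved by over 1.5 times for Hoxa3 (−0.43 to −0.095, the smallest without day 2), Hoxa4 (0.087 without day 3 to 0.51 without day 2), Hoxa5 (0.20 without day 4 to 0.46 without day 2), Hoxa10 (0.65 without day 3 to 1.34), Hoxb1 (−1.85 to −1.001 without day 1), Hoxb4 (−0.67 without day 0 to −0.17 without day 10), Hoxb5 (−0.87 without day 0 to −0.11 without day 2) and Hoxd8 (0.069 without day 12 to 0.45 without day 4), none of them called over all 9 days. The median over the 16 members ran from −0.52 to −0.10. The knockdown slope of Hoxb1 was 0.021 on log2(day + 1). The slope of the ratio ran, with a day left out, from −0.00051 to 0.13 for Hoxa2, −0.0066 to 0.16 for Hoxb2 and −0.058 to 0.027 for Hoxc4, and without days 1 and 2 it was −0.042 for Hoxa4, −0.021 for Hoxa5, −0.012 for Hoxa10, −0.0039 for Hoxb1, −0.034 for Hoxb2 and −0.034 for Hoxd9. The cause of these changes was not tested. The planned filter at log2 6 was not run, since the rounding step does not resolve it; at 8 no Hox gene passed. The settings on days 0 to 4, days 8 to 14, without days 1 and 2 and at log2 8 were chosen after seeing the data.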
